A study of Mus musculus with 4 samples.

Results

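The 32 genes described here encode the machinery that burns fatty acids in mitochondria and uses ketone bodies, with 4 of its transcriptional regulators. They were chosen in part on measured values of the comparison reported here: Cpt1a, Acadl and Oxct1 were noticed as raised in mutant embryos, and the other genes were added to complete the pathway. A gene counted as measured when the array annotation gave at least 1 probe set to its symbol alone, which held for 30 of the 32 genes, with 61 probe sets, out of 18193 genes on the array. Cpt1b, the muscle form of the carnitine transferase, is named by a probe set that carries 3 symbols and was therefore left out, and Acsl1 was not analysed here. Where a gene had several, the probe set brightest on average stands for it.

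RNA came from whole mouse embryos at E9.0 (embryonic day 9.0), 2 wildtype (labelled wt) and 2 homozygous mutants for the orphan nuclear receptor Nr6a1 (labelled Gcnf-/- after the older gene name and written Nr6a1-/- here), with 1 Affymetrix array for each embryo. Nr6a1 is disrupted throughout the embryo rather than in chosen cells, no treatment or further allele is named for either group, and the study's methods give a collection window that extends past the labelled stage. The mutant line was kept on a C56BL/6 background, in that spelling. The study also recounts, from earlier work, that embryos without Nr6a1 develop more slowly once somites start to form, do not complete turning and die early. No source used here gives the somite number or litter of an embryo, so differences of stage and of genotype cannot be told apart. Signals are log2 values from the robust multi-array average (RMA), and a log2 fold change is mutant minus wildtype. Wildtype replicate 1 differed from the other embryos, being the only one with a high Xist signal (13.11, against 6.44 to 6.68), and its poly-A spike controls read 8.96 against 9.59 to 9.66. Its signal for the Y-linked Eif2s3y was 4.25, against 9.31 to 9.52. By these genes it read as female and the others, both mutants included, as male, so sex was not balanced between genotypes.

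Fatty acids are activated to acyl-CoA by acyl-CoA synthetases, loaded onto carnitine by Cpt1 at the outer mitochondrial membrane, carried across by Slc25a20 and returned to CoA by Cpt2. In the matrix each turn of beta-oxidation uses an acyl-CoA dehydrogenase, a hydratase, a hydroxyacyl-CoA dehydrogenase and a thiolase, and the electrons taken by the dehydrogenase pass through the electron transfer flavoprotein to the respiratory chain. Ketone bodies are taken up by tissues such as heart and brain and turned back into acetyl-CoA by Bdh1, Oxct1 and Acat1. PPAR nuclear receptors with the coactivator Ppargc1a are the best known activators of these genes, and the heart shifts towards fatty acids as it matures.

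Sequence just before the start site is shown for the 4 genes with at least a 2-fold difference, and for the region between Hadha and Hadhb, whose start sites lie 273 bases apart on opposite strands of chromosome 5 so that both lie beside the same stretch. The 250 bases are from RefSeq on GRCm38.p6, read 5′ to 3′ on the strand of the gene (Hadhb for the shared region), in lower case, with the half-site AGGTCA or its reverse complement in capitals.
Cpt1a, chr19:3323051-3323300, plus strand: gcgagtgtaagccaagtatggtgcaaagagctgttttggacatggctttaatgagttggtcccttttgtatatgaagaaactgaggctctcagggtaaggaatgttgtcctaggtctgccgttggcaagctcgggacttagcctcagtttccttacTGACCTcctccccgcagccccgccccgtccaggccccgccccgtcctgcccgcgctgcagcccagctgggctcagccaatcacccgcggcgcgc
Acadl, chr1:66863310-66863559, minus strand: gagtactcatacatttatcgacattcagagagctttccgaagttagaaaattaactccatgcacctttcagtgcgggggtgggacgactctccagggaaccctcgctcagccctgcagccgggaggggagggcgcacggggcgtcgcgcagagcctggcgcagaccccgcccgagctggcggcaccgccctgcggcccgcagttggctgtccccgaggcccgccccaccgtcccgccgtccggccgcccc
Oxct1, chr15:4026178-4026427, plus strand: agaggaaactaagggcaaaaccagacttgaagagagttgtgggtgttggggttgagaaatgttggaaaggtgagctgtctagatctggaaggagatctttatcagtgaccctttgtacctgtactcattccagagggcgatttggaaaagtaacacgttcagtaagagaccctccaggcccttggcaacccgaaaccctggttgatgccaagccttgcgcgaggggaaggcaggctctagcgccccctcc
Eci1, chr17:24426433-24426682, plus strand: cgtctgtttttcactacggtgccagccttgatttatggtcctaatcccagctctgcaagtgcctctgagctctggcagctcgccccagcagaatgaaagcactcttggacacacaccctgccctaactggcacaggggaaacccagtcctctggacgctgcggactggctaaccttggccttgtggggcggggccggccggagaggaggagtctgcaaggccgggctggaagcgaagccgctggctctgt
Hadhb, chr5:30155003-30155252, plus strand: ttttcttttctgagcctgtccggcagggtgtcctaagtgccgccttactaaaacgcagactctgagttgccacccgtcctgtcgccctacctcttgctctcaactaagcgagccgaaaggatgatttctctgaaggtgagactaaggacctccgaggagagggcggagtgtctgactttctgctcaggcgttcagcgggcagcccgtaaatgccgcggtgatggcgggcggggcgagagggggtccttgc

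The letters of nuclear receptor elements were searched on both strands in 300-base windows, from 250 bases before to 50 after a start site. Windows were found for 26 of the 30 genes (31 windows; none for Acaa2, Acat1, Decr1 and Acot13) and compared with all 32851 windows of the table. The half-site AGGTCA occurred in 7 of the 31 windows (22.6%) against 16.3% of all windows, in Cpt1a, Acadvl, Acadm, Echs1, Acsl6 and 2 windows of Pparg. In Cpt1a it lay on the reverse strand, at position -94 from the start site, as the capitals above show. The direct repeat without spacer, AGGTCAAGGTCA (DR0, the element Nr6a1 is known to bind), and the repeat with 1 base between, AGGTCANAGGTCA (DR1, the PPAR element), were in 0 of the 31 windows, against 0.00609% and 0.0396% of all windows. With at most 1 base different they were again in 0 of 31, against 0.323% and 0.554%. The extended half-site TCAAGGTCA, which contains the half-site, was found in 1 window, of Acsl6, at position -167 on the reverse strand, against 0.423% of all windows. These are matches of letters in short windows and say nothing of binding.

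Nearly all genes of the pathway read somewhat higher in Nr6a1-/- embryos. A few stood far above the rest, among them the 3 chosen because they were noticed as raised. Of the 30, 28 lay above wildtype (47.1% of all genes did), with a median log2 fold change of 0.22 against -0.01 over all genes. In 26 both mutants lay above both wildtypes, against 26.2% of all genes, and in 0 both lay below, against 30.4%. Genes were called when they differed at least 2-fold and limma's adjusted p did not exceed 0.05. Cpt1a, Acadl, Eci1 and Oxct1 were called higher (0.423% of all genes were) and 0 were called lower (0.121%), with 16 genes higher (11.9% of all genes) and 0 lower at an unadjusted p under 0.05. Whatever the fold, 6 passed the adjusted p as higher (1.02% of all genes) and 0 as lower (0.374%). Because the choice of genes drew on this comparison, these shares and the calls of Cpt1a, Acadl and Oxct1 are a description. Nothing is read from them. Without the 3 genes that prompted the choice, the median was 0.18, 25 of 27 genes were above wildtype and 1 was called.

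**Figure D1:**
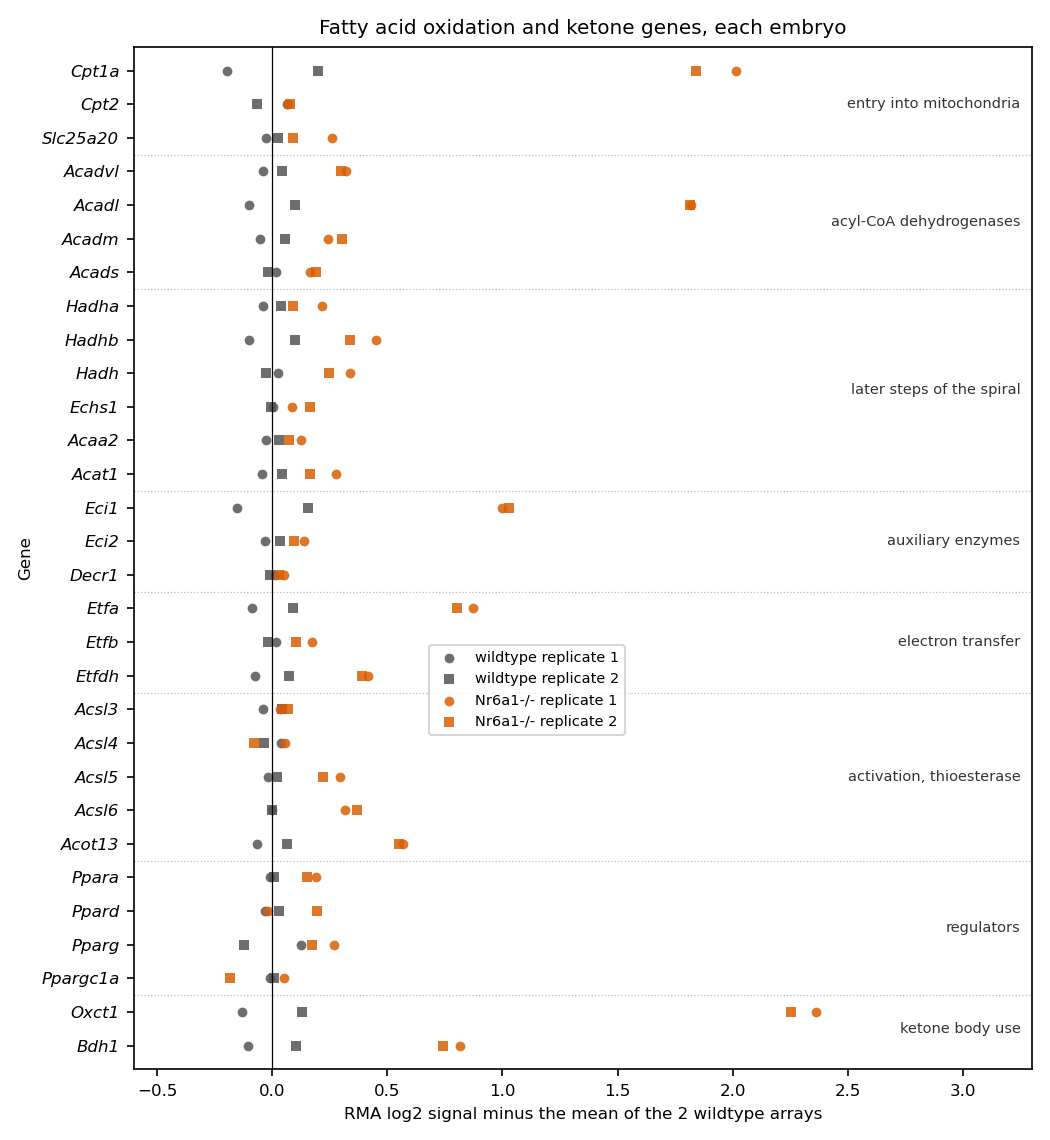
Signal of each embryo (horizontal axis, RMA log2 signal minus the mean of the 2 wildtype arrays) for the 30 genes (vertical axis), grouped by role with dotted lines; grey is wildtype, orange is Nr6a1-/-, circles are replicate 1 and squares replicate 2. Oxct1, Cpt1a and Acadl lie farthest to the right, with fold changes of 2.31, 1.93 and 1.82 on the log2 scale, while most genes shift by less than 0.5.

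The gatekeeper of mitochondrial entry was higher while its partners changed little. Cpt1a, the liver-type carnitine palmitoyltransferase of the outer membrane and the main control point of the pathway, read 6.85 and 7.25 in the wildtype embryos and 9.06 and 8.89 in the mutants. Both mutants lay well above both wildtypes, a 3.80-fold difference (log2 1.93 ± 0.15, moderated SE, n = 2 per genotype), given without a test because this gene was chosen for it. The other 2 Cpt1a probe sets, of a kind that can share sequence with other transcripts, had log2 fold changes of 2.04 and 1.31. They were dimmer, at the 24.5th and 6.41st percentiles of mean signal. Cpt2, which acts on the inner side, read 10.22 and 10.09 against 10.23 and 10.24, a log2 fold change of 0.07 ± 0.08, with wildtype replicate 1 almost level with the mutants. The carrier Slc25a20 stood at 0.18 ± 0.09 and did not pass (limma adjusted p = 0.337). Cpt1c, a brain form of the transferase outside the 32 genes, stood at 0.48 ± 0.07, short of the threshold (limma adjusted p = 0.0541).

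Of the 4 acyl-CoA dehydrogenases, which are specialised by chain length, Acadl stood apart. Acadl, the long-chain enzyme, read 9.83 and 10.03 in wildtype and 11.75 and 11.74 in mutants, 3.52-fold higher (log2 1.82 ± 0.09, SE, n = 2 per genotype, again given without a test). The mutants read nearly alike and the groups were far apart. A second Acadl probe set read only 4.25, 4.31, 4.23 and 4.21, among the dimmest 12.2% of all probe sets, with a log2 fold change of -0.06, so that the mean of both was 0.88 and short of 2-fold. Acadvl, for very long chains, stood at 0.31 ± 0.07, Acadm, for medium chains, at 0.27 ± 0.08, and Acads, for short chains, at 0.18 ± 0.07. None of these 3 passed (limma adjusted p from 0.115 to 0.236). In each both mutants lay above both wildtypes, as they did in 26.2% of all genes.

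Of the 6 genes for the later steps of the spiral 0 passed (of all genes, 1.02% passed as higher and 0.374% as lower), and their values lay between 0.10 and 0.39. In all 6 both mutants lay above both wildtypes, against 26.2% of all genes. Hadhb, the thiolase subunit of the mitochondrial trifunctional protein, read 11.14 and 11.33 in wildtype and 11.68 and 11.57 in mutants, a log2 fold change of 0.39 ± 0.10 (limma adjusted p = 0.125). Hadha, its partner subunit transcribed from the other side of the shared region shown above, stood at 0.15 ± 0.08 (adjusted p = 0.367). All 3 Hadhb probe sets were above wildtype, from 0.24 to 0.46. Hadh, the hydroxyacyl-CoA dehydrogenase for shorter chains, stood at 0.29, the hydratase Echs1 at 0.13, the thiolase Acaa2 at 0.10, and Acat1, the thiolase shared by fatty acid and ketone breakdown, at 0.22. Every probe set of Hadh, Acaa2 and Acat1 lay on the same side of 0.

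Among the auxiliary enzymes, which deal with double bonds of unsaturated fatty acids, 1 of 3 was called higher, against 0.423% of all genes. Eci1, an enoyl-CoA isomerase, read 9.53 and 9.84 in wildtype and 10.69 and 10.72 in mutants. It rose 2.02-fold, a log2 fold change of 1.02 ± 0.12 that just passed both thresholds (limma adjusted p = 0.0426). It fell short of 2-fold with median centring (0.99) and without wildtype replicate 1 (0.86), and by a margin lost in rounding without Nr6a1-/- replicate 2 (1.00). Eci2, a second isomerase, stood at 0.12 ± 0.07 and the dienoyl-CoA reductase Decr1 at 0.04 ± 0.07, and neither passed (limma adjusted p = 0.430 and 0.799).

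The electron transfer genes were uneven. Etfa, the larger subunit of the electron transfer flavoprotein, read 11.35 and 11.52 in wildtype and 12.31 and 12.24 in mutants, 1.79-fold higher (log2 0.84 ± 0.09, limma adjusted p = 0.0387) and so short of 2-fold. Etfb, the other subunit of the same dimer, stood at only 0.14 ± 0.07 (limma adjusted p = 0.355). The 2 genes were not tested against each other. Etfdh, which hands the electrons on to ubiquinone, stood at 0.40 ± 0.08 (limma adjusted p = 0.0963), and its second, very dim probe set at 0.00.

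Fatty acid activation showed no called gene (of all genes, 0.423% were called higher and 0.121% lower). Acot13, a thioesterase that frees fatty acids from CoA, read 10.35 and 10.49 in wildtype and 10.99 and 10.97 in mutants. Its log2 fold change of 0.56 ± 0.08 was the highest of this role and missed the threshold on both counts (limma adjusted p = 0.0554). Of the acyl-CoA synthetases, Acsl6 stood at 0.34 ± 0.07 by its brighter probe set and -0.07 by the other, and Acsl5 at 0.26 ± 0.07. Acsl3 stood at 0.05 ± 0.07, with its other 2 probe sets at -0.10 and -0.01. Acsl4 read 9.70 and 9.63 against 9.72 and 9.59, overlapping between genotypes (log2 fold change -0.01 ± 0.08). Acsl4 lies on the X chromosome, and wildtype replicate 1, the embryo with the high Xist signal, did not stand apart for it.

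The regulators read low and moved little. Ppara, the PPAR of liver and heart, read 5.25 and 5.27 in wildtype and 5.45 and 5.41 in mutants (0.17 ± 0.07). Pparg, the PPAR of fat cells, read 4.82 and 4.57 against 4.96 and 4.87 (0.22 ± 0.11). The widely expressed Ppard stood at 0.09 ± 0.10 and the coactivator gene Ppargc1a at -0.07 ± 0.10, both with overlapping groups. The probe sets that stand for these 4 genes lie below the middle of the array, from the 19.7th to the 49.4th percentile of mean signal. None passed (limma adjusted p from 0.254 to 0.777), and for Ppara, Ppard and Ppargc1a the probe sets fell on both sides of 0, the lowest being a Ppargc1a probe set at -0.41 ± 0.16.

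Both genes listed under ketone body use were higher. Acat1, which also serves it but is listed with the later steps, stood at 0.22 (limma adjusted p = 0.223). Oxct1, the CoA transferase that commits acetoacetate to oxidation, read 9.37 and 9.63 in wildtype and 11.86 and 11.75 in mutants. It was 4.94-fold higher (log2 2.31 ± 0.11, SE, n = 2 per genotype, without a test as it was chosen for this), and all 4 of its probe sets lay above wildtype, at 2.31, 2.31, 1.86 and 1.32. Of these, only the probe set at 1.86 (3.62-fold) is not of the kind that can share sequence with other transcripts. Bdh1, which turns hydroxybutyrate into acetoacetate, read 8.07 and 8.28 in wildtype and 8.99 and 8.92 in mutants, 1.71-fold higher (log2 0.78 ± 0.10, limma adjusted p = 0.0467) and short of 2-fold. A second, dim Bdh1 probe set stood at 0.30 ± 0.08.

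**Figure D2:**
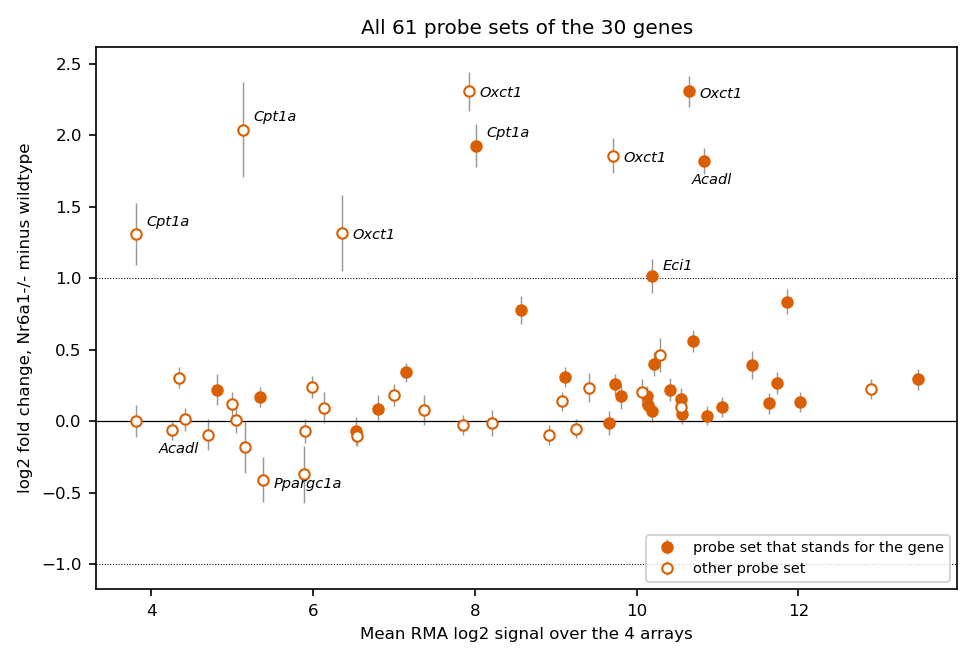
Log2 fold change (vertical axis, mutant over wildtype, with moderated SE from limma as bars) against mean RMA log2 signal over the 4 arrays (horizontal axis) for all 61 probe sets of the 30 genes; filled points stand for a gene, open points are its other probe sets and dotted lines mark 2-fold. Oxct1 and Cpt1a lie above 2-fold by every probe set, the dimmest at a mean signal of 3.82. The dim Acadl probe set (mean signal 4.25) lies at -0.06.

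Not every probe set of a gene gave the same direction. Of the 18 genes with over 1 probe set, 10 had all of them on the same side of 0 and 8 did not. Those 8 were Acadl, Acsl3, Acsl4, Acsl6, Decr1, Ppara, Ppard and Ppargc1a. Over all 61 probe sets, 48 lay above 0.

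The fold changes of the genes spread widely, from -0.07 to 2.31. Of the 30, 2 lay below 0, 14 between 0 and 0.25, 7 between 0.25 and 0.5, 3 between 0.5 and 1 and 4 above 1. By rank among the 18193 genes, Oxct1 was 9th, Cpt1a 20th, Acadl 24th and Eci1 114th from the highest. All but Eci1 were chosen because they were noticed as raised, so their ranks are a description. For comparison, the 95th percentile of all genes was 0.40, which 7 of the 30 exceeded. Array by array, the median of the 30 genes, each centred on its mean over the 4 arrays, was -0.12 and -0.10 in wildtype and 0.15 and 0.10 in mutants.

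Among related genes outside the 32, a single gene was called. In the list for uptake and other carnitine acyltransferases (11 of 12 measured), the median was 0.08 and 7 genes were above wildtype. Fabp3, which binds fatty acids inside heart and muscle cells, read 9.21 and 10.28 in wildtype and 13.12 and 13.18 in mutants, and was called (10.6-fold, log2 3.41 ± 0.34, limma adjusted p = 0.0341), or 1.76 as the mean of its 2 probe sets. The malonyl-CoA list, whose product inhibits Cpt1, held Mlycd, which removes malonyl-CoA, at 0.36 ± 0.08 and Acaca, which makes it, at -0.22 ± 0.08, with 0 of 3 called and 0 at an adjusted p of 0.05. Peroxisomal oxidation (10 of 12 measured) had a median of 0.11 with 0 called, and the largest values were Acaa1b at 0.53 ± 0.17 and Pecr at -0.28 ± 0.11.

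The remaining mitochondrial acyl-CoA enzymes, many of which break down branched-chain amino acids, had 12 of 15 genes above 0 (median 0.14, 0 called), led by Pccb at 0.36 ± 0.08 and Acot2 at 0.26 ± 0.09. In the list for ketone synthesis and transport, 6 of 10 genes were measured, with a median of 0.11 and 0 called. There the ketone and lactate transporter Slc16a7 stood at 0.64 ± 0.23 and Oxct2a, a testis form of the transferase, at 0.30 ± 0.11. PPAR partners and targets had a median of -0.01 over 13 genes, 6 above and 7 below wildtype. Rxrg, a retinoid X receptor that pairs with PPARs, stood at 0.73 ± 0.09 (limma adjusted p = 0.0438) but short of 2-fold, and Esrrg, an orphan receptor of oxidative muscle, at 0.40 ± 0.08. The PPAR target Pdk4 read 4.26 and 4.46 against 4.56 and 4.67, and Plin2 and Angptl4 stood at 0.17 and 0.09 without passing. Among those below wildtype, Pprc1 stood at -0.32 ± 0.08, Ppargc1b at -0.31 ± 0.08, Ucp3 at -0.14 ± 0.09 and Plin5 at -0.03 ± 0.09, again without passing.

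Mitochondrial genes outside fatty acid oxidation lay on both sides of wildtype. For the citric acid cycle, respiratory chain and mitochondrial content (20 of 21 measured), 11 were above and 9 below, the median was 0.00 and 0 were called. Cycs, the electron carrier cytochrome c, was farthest from 0 at -0.41 ± 0.07 (limma adjusted p = 0.0811), and Cs, citrate synthase, stood at -0.25 ± 0.08. No list was tested against another.

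**Figure D3:**
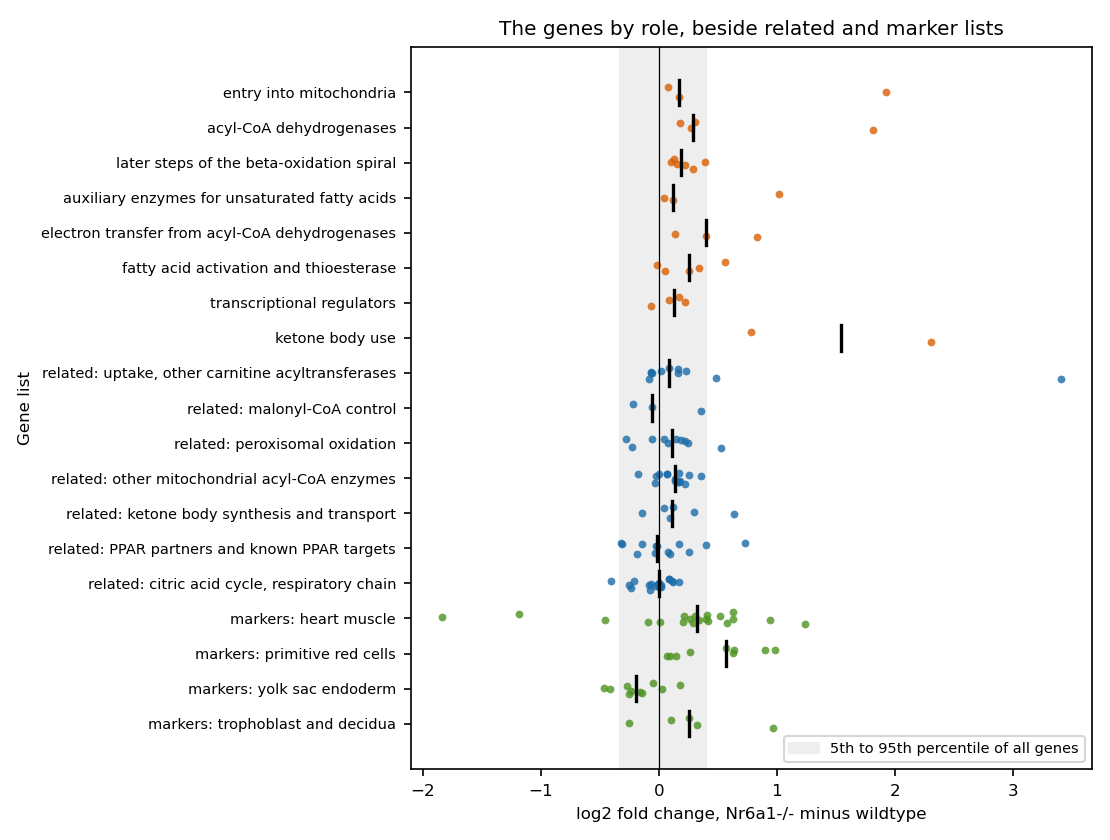
Each point is 1 measured gene, placed by its log2 fold change of mutant over wildtype (horizontal axis) within its list (vertical axis), with black bars at list medians; orange are the 30 genes by role, blue related lists, green marker lists, and the grey band holds the 5th to 95th percentile of all genes. Ketone body use has the highest median (1.54, from 2 genes, of which Oxct1 was chosen as raised), and the citric acid cycle and respiratory chain list sits at 0.00.

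Several of these enzymes are abundant in heart, and in RNA of whole embryos more cells of a type and more RNA per cell cannot be told apart. Of 20 heart muscle markers, 16 lay above wildtype (median 0.32). Signals of all 20, summed on the linear scale, were 45383 and 51686 in wildtype and 64502 and 61081 in mutants. In this and the later sums the brightest genes weigh most. The ventricular light chain gene Myl3 rose (1.24 ± 0.14, limma adjusted p = 0.0404), while the natriuretic peptide genes lay lower, Nppa at -1.84 (adjusted p = 0.0338) and Nppb at -1.19 (adjusted p = 0.0820). Primitive red cell markers lay above wildtype in 9 of 9 (median 0.57), with sums of 94276 and 97657 against 108360 and 103070, led by Alas2, the first enzyme of haem synthesis, at 0.98. Yolk sac endoderm markers lay below in 8 of 10 (median -0.20), with sums of 129130 and 117660 against 117160 and 103620, and Hnf4a farthest at -0.47. Of 8 trophoblast and decidua markers 5 were measured, and 4 of these lay above wildtype (median 0.25), with sums of 1955 and 2170 against 3559 and 3555. Plac1 stood at 0.96 ± 0.10 (limma adjusted p = 0.0378), Ascl2 at 0.32 ± 0.10 and Hand1 at 0.25 ± 0.10. Tpbpa (0.10) and Prl8a2 (-0.25) read between 3.98 and 5.73 in all 4 arrays. RMA gives no value of 0, so no marker could be called absent. The ribosomal 18S control probe sets were higher in mutants by 1.06. The part of these differences in the values of the pathway was not tested.

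Wildtype replicate 1 read lower than wildtype replicate 2 for all 6 genes that passed limma's adjusted p, and for 21 of the 30 (70%, against 47.7% of all genes). Without it the log2 fold changes were 2.18 for Oxct1, 1.73 for Cpt1a, 1.72 for Acadl, 0.86 for Eci1, 0.75 for Etfa and 0.67 for Bdh1, and 29 of 30 genes lay above wildtype.

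**Figure D4:**
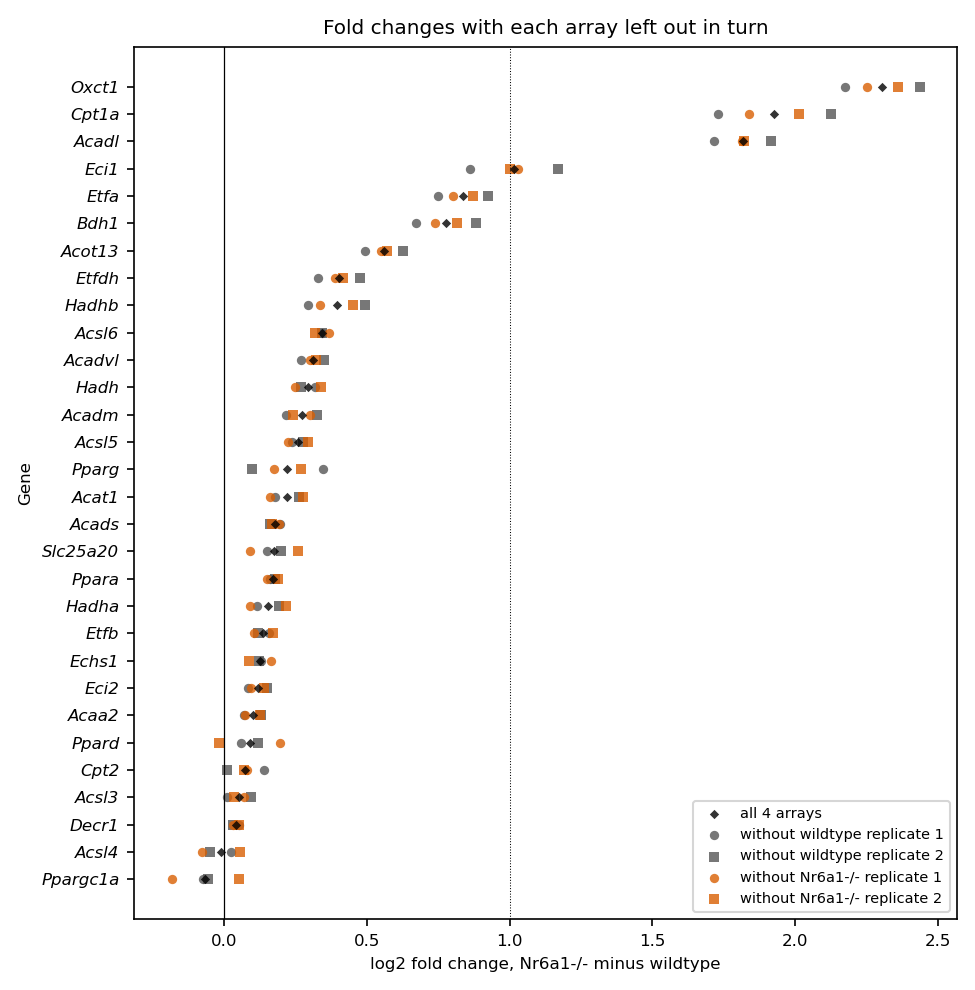
Genes in order of value (vertical axis) and their log2 fold change, mutant over wildtype (horizontal axis), with all 4 arrays (diamonds) and with 1 array left out (circles, replicate 1; squares, replicate 2; grey, wildtype left out; orange, Nr6a1-/- left out); the dotted line marks 2-fold. Oxct1, Cpt1a and Acadl stay above 1.7 in every case, and Eci1 falls to 0.86 without wildtype replicate 1.

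For 2 embryos against 2 the smallest two-sided p of an exact permutation test is 0.333, so the adjusted p-values rest on the spread that limma shares across probe sets. With any 1 array left out 0 of the 30 genes passed in limma, with 12 to 15 higher and 0 lower at an unadjusted p under 0.05 (of all genes, 7.22 to 9.5% were higher and 5.9 to 9.21% lower). Calls were lost over the whole array, since of all 18193 genes 4 were called higher without wildtype replicate 2 and 0 without any of the others. In these fits Oxct1, Cpt1a and Acadl kept more than a 2-fold difference. The Nr6a1 probe set with the highest mean read 11.53 and 11.80 in wildtype and 11.87 and 12.14 in mutants, and since its place relative to the deletion was not established it does not check the labels.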

How the data were processed

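Affymetrix mouse arrays of 2 wildtype and 2 Nr6a1-/- whole embryos were analysed. Per the labels and the study's methods, the authors made the deposited log2 signals by RMA, which corrects background, quantile-normalises the arrays and summarises each probe set. Such normalisation removes shifts common to most transcripts. No source used here gives its version. The 64 control probe sets were left out, leaving 45037. The platform annotation gave 34945 (77.6%) a single symbol, 932 several and 9160 none. Through the Entrez identifier 99.42% matched RefSeq genes of GRCm38.p6, and 0 symbols changed. Array coordinates were not used.

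Genotypes were compared for every probe set in limma 3.58.1 (lmFit, eBayes; R 4.3.3) with genotype as sole term, with Benjamini-Hochberg adjustment over all 45037 and the study's thresholds (adjusted p of 0.05 or lower, at least 2-fold). SD values are between arrays and SE values limma's moderated ones. Replicates were taken as separate embryos, since the methods describe extraction from each, and the number of arrays limits the precision. The genes, their roles and the 7 related and 4 marker lists were chosen with earlier results of these data known, and no list test was run. All 30 measured genes are named. Of related lists, called genes and the 2 largest changes are named, and of marker lists up to 3. Plin2, Angptl4, Pdk4, Plin5, Ucp3, Pprc1, Ppargc1b, Tpbpa and Hand1 were named after their values were seen. Of the list entries, 16 of 168 had no probe set with a single symbol. The fitting procedure was tested on simulated data. Settings tried besides were a replicate block, omission of each array, dim probe sets left out (mean log2 under 6.842), repeated quantile normalisation, median centring, eBayes with trend or robust, no fold threshold, treat at 1.5-fold, omission of probe sets that share sequence, and averaging over the probe sets of each gene.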

Additional observations from a re-analysis of the deposited data

How the results depend on the processing

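Leaving out 1 array, where the remaining single embryo is taken to vary as the pair does, gave 0 called genes of the 30 in each case (12 to 15 higher and 0 lower at an unadjusted p under 0.05 in limma, against 7.22 to 9.5% and 5.9 to 9.21% of all genes, of which 0 to 4 were called higher), and a median log2 fold change from 0.19 (without Nr6a1-/- replicate 1) to 0.26 (without Nr6a1-/- replicate 2), against 4 called and 0.22. With the replicate number as a block 0 passed in limma (14 higher and 0 lower at an unadjusted p under 0.05), and of all 18193 genes 0 were called (10.7% higher and 11.1% lower unadjusted). The block leaves 1 residual degree of freedom by construction, and nothing pairs the embryos but their number (correlation of the deviations 0.06). Treat called 2, Acadl and Oxct1, by its stricter construction. Whatever the fold, 6 passed, and 11 with an intensity trend. The median was 0.26 with dim probe sets left out, from 26 genes, and 0.18 when all probe sets of a gene were averaged. There Acadl (0.88) was short of 2-fold, as Eci1 (0.99) was with median centring, leaving 3 called each time. Counts of 0 lower held in all 14 settings, in which 0 to 68 of all genes were called lower. Nothing is read from them, as so few genes were called lower anywhere. The cause of the other changes was not tested. Cpt1a, Acadl, Oxct1, Eci1, Etfa and Bdh1 kept their direction in all 10 settings run for fold changes; Acsl3, Acsl4, Ppard and Ppargc1a, none of them called, lay on the opposite side of 0 in 1 to 3. Signal over background was not assessed, as RMA gives no detection call.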
